A study of Homo sapiens with 4 samples.

Results

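The genes described here encode the kinase LKB1 with its partners, the subunits of the AMP-activated protein kinase (AMPK), and 2 related kinases that LKB1 also activates. They were chosen by name, as the rows of the deposited count table with the symbols STK11, STRADA, CAB39, PRKAA1, PRKAA2, PRKAB1, PRKAB2, PRKAG1, MARK2 and SIK3. Of these 10 names, 9 have a row among the 21372 genes of the table, and PRKAG1, which encodes a gamma subunit of AMPK, was not analysed here. All 9 passed the filter on low counts. The choice was made with the difference between immunoprecipitate and input already known, so that difference is given for these 9 genes as a description, with no p-value. On which side of the threshold each lay in the fit across all genes is stated beside the share of all genes, and nothing is read from it.

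LKB1, encoded by STK11, is a serine/threonine kinase and a tumour suppressor that is often inactivated in lung adenocarcinoma. It works in a complex with the pseudokinase STRAD, encoded by STRADA, and the scaffold MO25, encoded by CAB39. The complex phosphorylates the activation loop of AMPK, a sensor of cellular energy made of a catalytic alpha, a scaffolding beta and a nucleotide-binding gamma subunit, and of AMPK-related kinases such as MARK2, a regulator of microtubules and cell polarity, and SIK3, a salt-inducible kinase that restrains CRTC coactivators and class IIa histone deacetylases. Active AMPK slows lipid and protein synthesis and promotes catabolism and autophagy.

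The series set RNA that came down with the protein P5CS beside the input RNA of NCI-H1299 cells, an established human lung cancer line that is labelled lung adenocarcinoma, with 2 libraries of the P5CS immunoprecipitate (P5CS IP) and 2 of the input. P5CS makes a precursor of proline in mitochondria, and the question is whether it also acts as an RNA-binding protein. The cells of both groups were the same line under the same culture protocol, with no further treatment or genotype in the labels. RNA immunoprecipitation sequencing recovers RNA with an antibody against a protein and sequences it beside the starting RNA. A mock or IgG control is not among the libraries analysed here, so a gene described as higher in the IP took a larger part of the IP reads than of the input reads, and RNA bound to P5CS cannot be told apart from RNA retained for other reasons. Whether the 2 libraries of a group are separate cultures is not stated by any label, so the p-values below cover only how far these libraries scatter, and that scatter may be technical.

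The libraries held 31489455 to 46339235 counts, and 3 counts corresponded to 0.0647 to 0.0953 CPM (counts scaled to a library of 1e6). Among low counts, 85.8 to 86.4% per library were even, as when each mate of a pair is counted once, and intervals were computed on halved counts and cover counting error only. Of 5 epithelial markers, KRT18 was the most abundant, at 256 ± 4.06 FPKM in the input (SD, n = 2), EPCAM had 0 counts in both IP libraries and 8 and 6 in the inputs, and CDH1 was not analysed here. Of 5 lung epithelial markers only NKX2-1 has a row, with 20 and 52 counts in the IPs and 8 and 0 in the inputs, and the other 4 were not analysed here. Of 5 blood and immune markers 3 have a row, from PTPRC at 0.0206 ± 0.00718 to HBB at 0.173 ± 0.0919 FPKM in the IP, and of 6 fibroblast and endothelial markers 5 have one, from DCN at 0.0561 ± 0.0121 to VWF at 0.242 ± 0.0845 FPKM in the IP (SD, n = 2 each). The mesenchymal filament gene VIM stood at 1844 ± 29.7 FPKM in the input. SMARCA4, deficient in this line, had 1040 and 787 input counts (3.09 ± 0.870 FPKM, SD, n = 2), so reads assigned to it were present.

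STK11, MARK2 and CAB39 stood higher in the P5CS IP, and the other 6 genes stood lower. Together the 9 genes made up 524 and 580 CPM of the IP libraries and 245 and 236 CPM of the inputs, over plain library totals (exact Clopper-Pearson 95% intervals on halved counts from 514 to 535 and 568 to 592, and from 238 to 252 and 230 to 243). STK11 alone supplied 54.0 and 57.5% of the member counts in the IPs and 32.0 and 29.4% in the inputs, and MARK2 a further 23.1 and 20.3% in the IPs and 16.2 and 16.6% in the inputs. The summed share therefore mostly follows 1 gene.

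**Figure D1:**
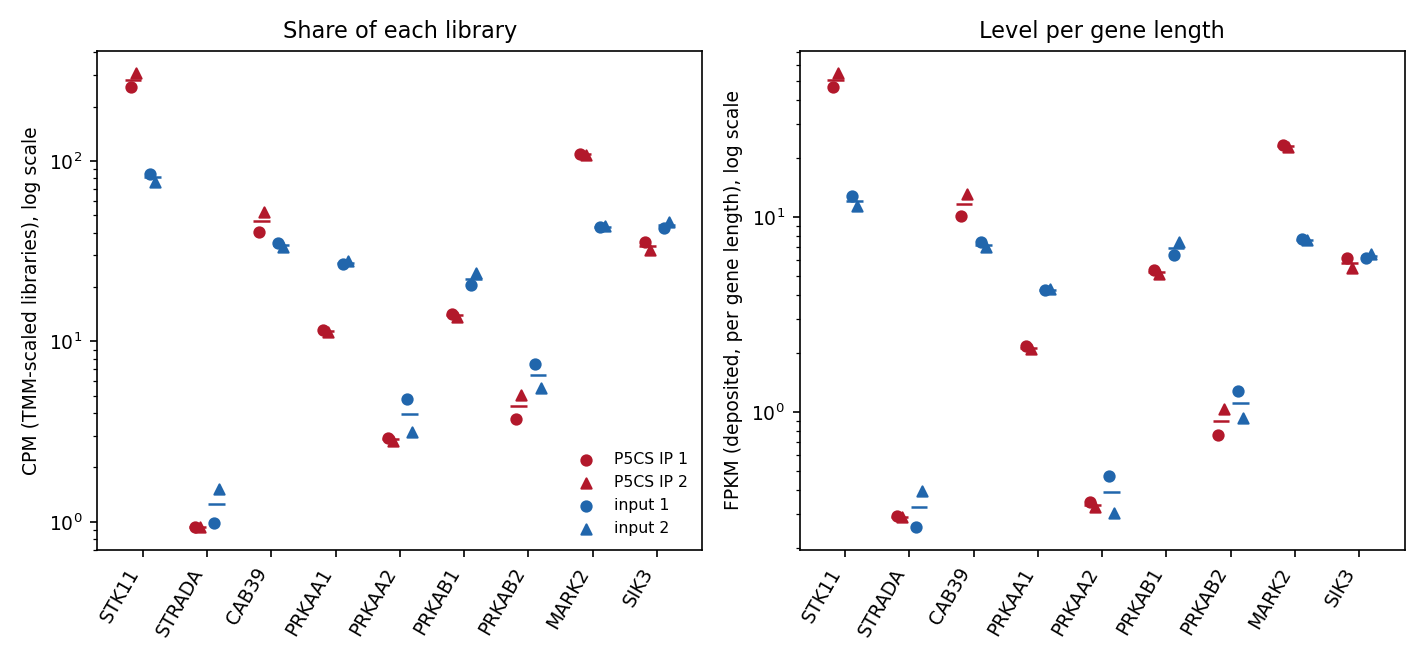
Each point is 1 library (circles replicate 1, triangles replicate 2), and short lines are the means of the 2 P5CS IP (red) and the 2 input libraries (blue). The left panel gives CPM over TMM-scaled library sizes and the right panel the deposited FPKM, both on a log axis, with STK11 and MARK2 the highest members in either group per gene length.

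Among the genes of the LKB1 complex, the kinase itself differed most. STK11 (gene ID 6794, chromosome 19, 1205778 to 1228431, GRCh38) had 9839 and 10498 counts in the P5CS IP libraries and 3204 and 3219 in the inputs. Scaled for library size this was 257 and 306 CPM in the IPs and 85.2 and 76.8 CPM in the inputs. Both IP libraries lay above both inputs, by 3.47-fold on average (log2 fold change 1.80, SE 0.104), and 92.2% of the 17304 genes tested had a smaller log2 fold change. The value ran from 1.70 to 1.92 when 1 of the 4 libraries was left out, and was 1.53 with the trend on gene length removed.

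CAB39 (chromosome 2, 230712842 to 230821075), which encodes the MO25 alpha scaffold of the complex, had 1536 and 1802 counts in the IPs and 1319 and 1406 in the inputs, or 40.2 and 52.5 CPM against 35.1 and 33.6 CPM. The IP libraries again lay above the inputs, but the gap between them and the nearest input was smaller than the gap between the 2 IP libraries. The log2 fold change was 0.43 (SE 0.138), and it was 0.26 without the second P5CS IP library.

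STRADA (chromosome 17, 63702832 to 63741986), which encodes the pseudokinase that activates LKB1 allosterically, was barely detected, with 36 and 32 counts in the IPs and 37 and 64 in the inputs. On halved counts, its share of the first IP library was 1.04 CPM (95% exact interval 0.614 to 1.64) and of the second input 1.38 (0.945 to 1.95), so the intervals of all 4 libraries overlapped. Its log2 fold change of -0.42 (SE 0.606) was not distinguishable from 0 at these counts, and was -0.07 without the second input library. Per gene length, STK11 exceeded STRADA by 158- and 189-fold in the IPs and by 50.0- and 29.0-fold in the inputs. These ratios rest on few STRADA counts, and whether they reflect mRNA level or the assignment of reads was not tested. STRADB, the paralogue of STRADA, stood above it per gene length and is described below.

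The AMPK subunit genes all stood lower in the IP than in the input. PRKAA1 (chromosome 5, 40759389 to 40798374), which encodes the alpha 1 catalytic subunit, had 442 and 386 counts in the IPs and 1008 and 1164 in the inputs. This was 11.6 and 11.2 CPM in the IPs against 26.8 and 27.8 CPM in the inputs, with a spread inside each group far below the distance between them. The input exceeded the IP 2.39-fold (log2 fold change -1.26, SE 0.148), and 13.4% of the tested genes had a lower value.

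PRKAA2 (chromosome 1, 56645314 to 56715335), which encodes the alpha 2 subunit that predominates in skeletal and heart muscle, was scarce, at 112 and 96 counts in the IPs and 180 and 132 in the inputs. The IP libraries stood at 2.93 and 2.80 CPM and the inputs at 4.79 and 3.15 CPM, so the second input lay closer to the IPs than to the first input. The log2 fold change was -0.47 (SE 0.350), and it was -0.14 without the first input library and -0.74 without the second.

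PRKAB1 (chromosome 12, 119667952 to 119681619), the gene of the beta 1 scaffold subunit, had 542 and 470 counts in the IPs and 770 and 1008 in the inputs, or 14.2 and 13.7 CPM against 20.5 and 24.1 CPM. Its log2 fold change was -0.68 (SE 0.158), with both IPs below both inputs. PRKAB2 (chromosome 1, 147155106 to 147172470), which encodes beta 2, had 142 and 174 counts in the IPs and 280 and 232 in the inputs, or 3.71 and 5.07 CPM against 7.45 and 5.54 CPM. The second IP and the second input library of PRKAB2 differed by less than either group's own spread, and the log2 fold change was -0.57 (SE 0.287), ranging from -0.77 to -0.34 when 1 library was left out.

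The AMPK-related kinases stood on opposite sides. MARK2 (chromosome 11, 63839110 to 63911020) had 4202 and 3702 counts in the IPs and 1621 and 1816 in the inputs, or 110 and 108 CPM against 43.1 and 43.4 CPM. The replicates of MARK2 lay close together in both groups, and the IP exceeded the input 2.52-fold (log2 fold change 1.33, SE 0.0922). SIK3 (chromosome 11, 116843402 to 117098428) had 1360 and 1098 counts in the IPs and 1608 and 1914 in the inputs, or 35.6 and 32.0 CPM against 42.8 and 45.7 CPM. Its log2 fold change of -0.39 (SE 0.116) was nearer to 0 than those of the 4 AMPK subunit genes, a difference that was not tested, and was -0.28 without the second P5CS IP and -0.12 with total counts as library sizes.

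In the fit across all genes, 6 of the 9 members passed an adjusted p of 0.05 (quasi-likelihood test in edgeR with Benjamini-Hochberg adjustment), against 51.0% of all tested genes. The 6 were STK11, MARK2 and CAB39 on the higher side, where 25.4% of all tested genes were called, and PRKAA1, PRKAB1 and SIK3 on the lower side, where 25.6% were. STRADA, PRKAA2 and PRKAB2 did not pass. In CPM the 2 IP libraries lay on 1 side of both inputs for all 9 members, as they did for 75.9% of all tested genes. In FPKM, over plain library totals, they did so for 6 of the 9, as for 76.1% of all tested genes, and the groups overlapped for STRADA, PRKAA2 and PRKAB2. The median log2 fold change was -0.42 over the 9 members and -0.01 over all tested genes.

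In the authors' deposited table, STK11 and MARK2 carry the mark of enrichment and the other 7 members do not, while 19.0% of all genes of that table are marked. That mark follows an unadjusted p under 0.05 and a fold above 1.5. The log2 fold changes of the authors' deposited table were 1.82 for STK11 (SE 0.108), 1.35 for MARK2 (SE 0.113) and 0.45 for CAB39 (SE 0.162), and CAB39 lies under the fold the mark requires.

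**Figure D2:**
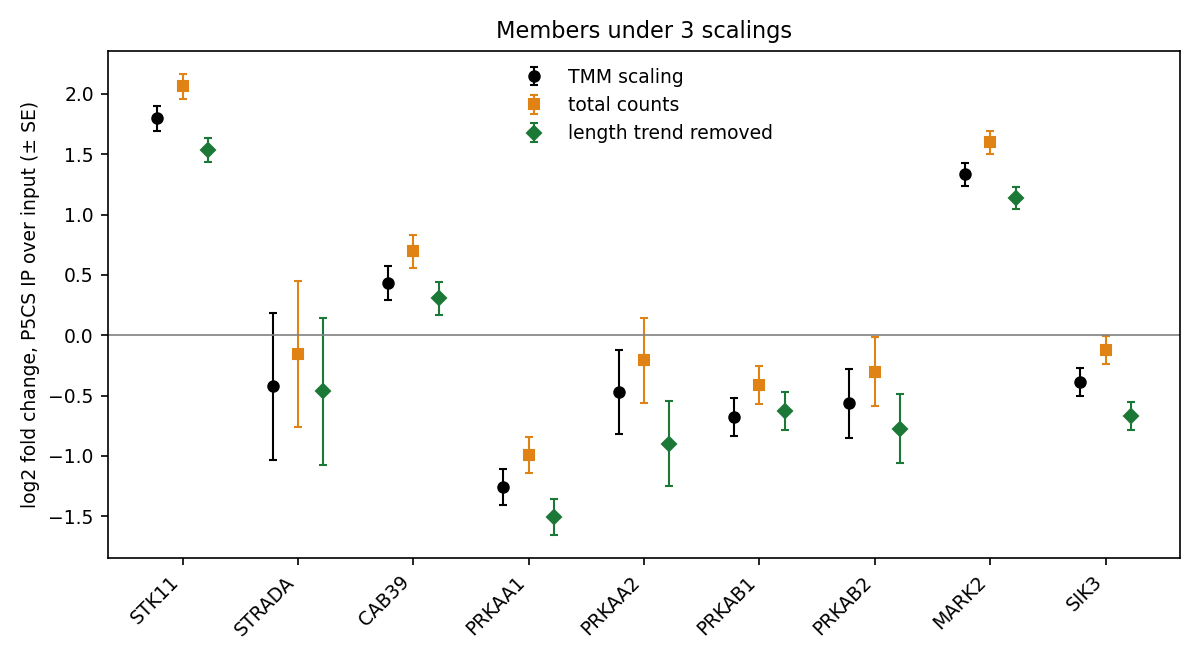
Points are log2 fold changes of the P5CS IP over the input with their SE from the fit on 2 against 2 libraries, for TMM scaling (black), total counts (orange) and TMM with the gene length trend removed (green). STK11, MARK2 and CAB39 lie above 0 and the other 6 members below 0 in all 3 settings, and SIK3 moves closest to 0, at -0.12 with total counts.

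Scaling moved every value by a like amount. With total counts in place of TMM factors the median log2 fold change of all tested genes went from -0.01 to 0.25, and STK11 stood at 2.06, MARK2 at 1.60 and CAB39 at 0.70. On that scale PRKAA1 stood at -0.99, PRKAB1 at -0.41, PRKAB2 at -0.30, PRKAA2 at -0.21, STRADA at -0.16 and SIK3 at -0.12, and PRKAB1 and SIK3 no longer passed. The sign of each member was the same under all 12 alternative settings run.

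Ratios between members inside a library do not depend on that scaling. Per gene length, STK11 exceeded PRKAA1 by 3.05- and 2.65-fold in the inputs and by 21.3- and 26.1-fold in the IPs. MARK2 exceeded SIK3 by 1.25- and 1.18-fold in the inputs and by 3.83- and 4.18-fold in the IPs. The kinase and the scaffold of the LKB1 complex also moved apart, with STK11 exceeding CAB39 by 1.73- and 1.63-fold in the inputs and by 4.55- and 4.14-fold in the IPs. Between the beta subunit genes no such shift was seen, as PRKAB1 exceeded PRKAB2 by 5.02- and 7.93-fold in the inputs and by 6.97- and 4.93-fold in the IPs, ranges that overlap. Between the alpha subunit genes, PRKAA1 exceeded PRKAA2 by 8.95- and 14.1-fold in the inputs and by 6.31- and 6.43-fold in the IPs.

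The order of levels per gene length in the input ran from STK11 (12.1 ± 1.02 FPKM) over MARK2 (7.65 ± 0.0593), CAB39 (7.21 ± 0.309), PRKAB1 (6.93 ± 0.708), SIK3 (6.32 ± 0.222), PRKAA1 (4.25 ± 0.0582), PRKAB2 (1.11 ± 0.243) and PRKAA2 (0.387 ± 0.117) to STRADA (0.324 ± 0.0956; SD, n = 2 each). The libraries of CAB39 and PRKAB1, of PRKAB1 and SIK3, and of PRKAA2 and STRADA overlapped, so these neighbours did not differ beyond their spread. Among the alpha and beta subunits, the main mRNAs of the input were thus those of alpha 1 and beta 1. Of the gamma subunit genes, PRKAG2 stood at 3.29 ± 0.0909 FPKM in the input (SD, n = 2), and PRKAG1 was not analysed here. In the P5CS IP the order of means was the same except that SIK3 (5.81 ± 0.476 FPKM) and PRKAB1 (5.21 ± 0.165 FPKM) changed places. The libraries of no neighbours overlapped there, but the lowest of SIK3 (5.47 FPKM) and the highest of PRKAB1 (5.33 FPKM) lay close together. As this pair also overlapped in the input, a change of places is not established. The place of STRADA rests on 36 and 32 counts in the IPs. STK11 stood at 50.5 ± 5.79 FPKM in the IP, and 81.1% of all tested genes had a lower level in the input and 94.2% in the IP, while the same share for PRKAA1 was 62.0% in the input and 45.9% in the IP (SD, n = 2).

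The members have long gene models, a property the choice did not use. The lengths recovered from the deposited counts and FPKM ran from 2928 nt for PRKAB1 and 3526 nt for STRADA to 9358 nt for PRKAA2, with STK11 at 6111 nt, PRKAA1 at 5854 nt, MARK2 at 5148 nt and SIK3 at 6375 nt. Longer models stood higher in the IP over the whole table: the median log2 fold change was -0.65 among the shortest of 5 length groups of equal size (up to 1633 nt) and 0.38 among the longest (from 6247 nt). All 9 members lie in the 3 upper length groups. STK11 and PRKAA1, the members with the highest and lowest value, lie in the same length group (median 0.16). They differ by 257 nt in length and stand at 1.80 and -1.26. How far length contributes to the value of any member was not tested. With the length trend removed the values were 1.53 for STK11, 1.14 for MARK2, 0.31 for CAB39, -0.63 for PRKAB1, -0.67 for SIK3, -0.77 for PRKAB2, -0.90 for PRKAA2 and -1.50 for PRKAA1. CAB39 no longer passed in that fit and PRKAB2 did. STRADA, the remaining member, kept its negative sign in that fit and did not pass.

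**Figure D3:**
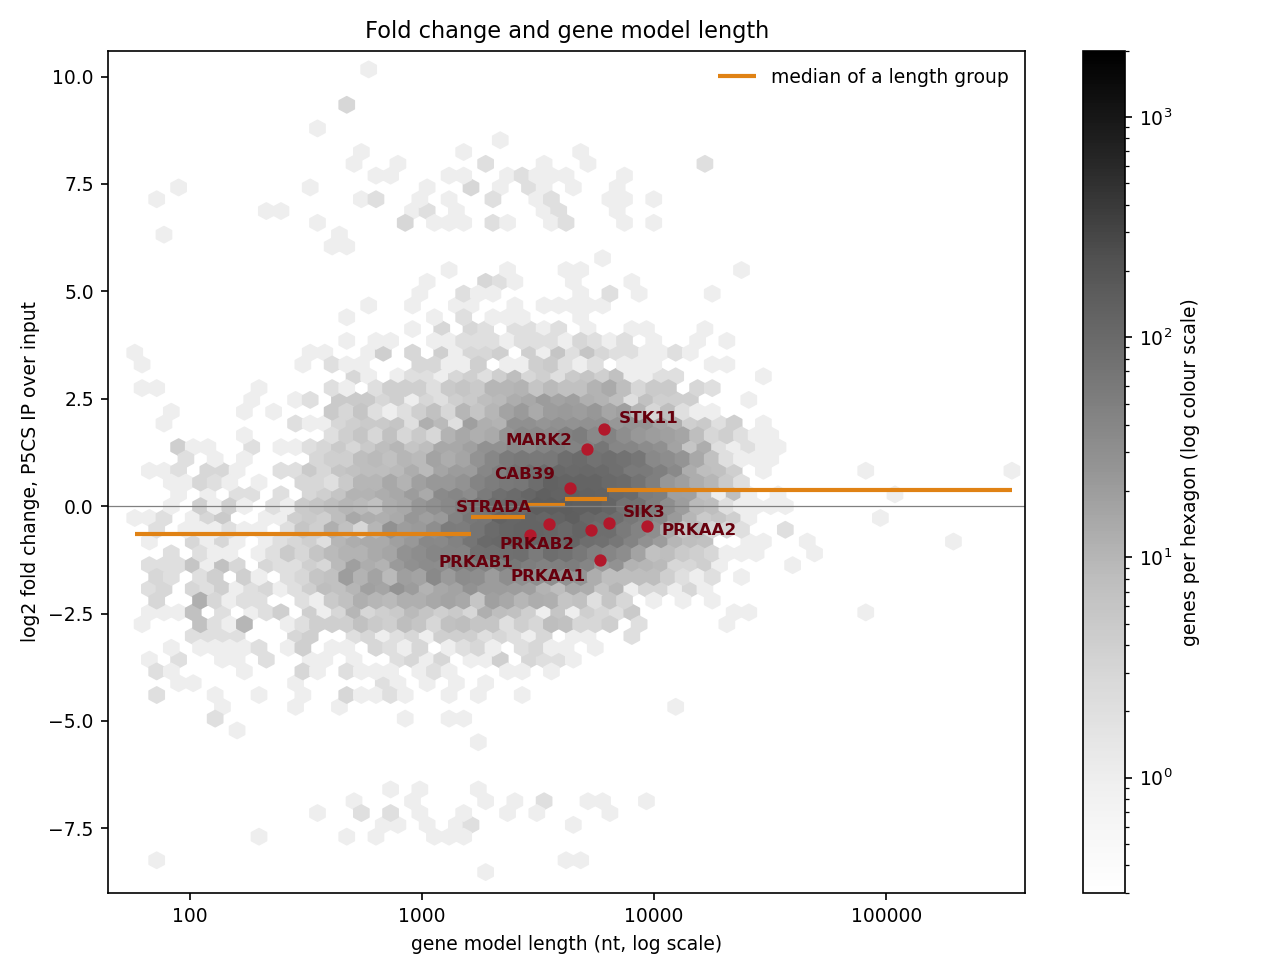
Grey hexagons count the 17304 tested genes by gene model length (log axis) and log2 fold change of the P5CS IP over the input, orange lines are the medians of 5 groups of equal size by length, and red points are the 9 members. The medians rise from -0.65 to 0.38 with length, and STK11 and PRKAA1, the members with the highest and lowest value, lie far apart at nearly the same length.

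Of 15 genes whose annotated spans overlap those of the members, 3 have a row in the table used here, and the others were not analysed here. CBARP, whose annotated span begins inside the last bases of STK11 in the RefSeq annotation, had 990 and 975 counts in the IPs and 453 and 484 in the inputs, and no source states whether counting used strand, so reads in the shared stretch cannot be assigned with certainty. APOA1-AS, whose span partly overlaps that of SIK3, had at most 10 counts in a library, and RPS27P19, inside the span of SIK3, at most 16. Of 22 pseudogenes of members in the RefSeq annotation, 21 of them of MARK2, MARK2P9 alone has a row in the table used here. It had 12 and 26 counts in the IPs and 0 in both inputs, counts that may be shared with MARK2. These genes were chosen after their values were seen.

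The other genes of the pathway were taken from 6 lists of 45 genes, of which 44 have a row and 43 were tested. These lists were also written with earlier results of these data known. Their counts, medians and p-values are therefore a description and not an independent result about the pathway. By the same edgeR test at an adjusted p of 0.05, 24 of them rose, 8 fell and 11 did not pass, against 25.4 and 25.6% of all tested genes, and their median log2 fold change was 0.50 against -0.01 over all tested genes. With the length trend removed, 17 rose and 10 fell. With total counts, 28 rose and 4 fell.

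The remaining subunit genes resembled those of AMPK described above in sign. PRKAG2, which encodes the gamma 2 subunit, had 484 and 538 counts in the IPs and 703 and 828 in the inputs (log2 fold change -0.44, SE 0.169, adjusted p = 0.0484, edgeR quasi-likelihood test), a call that ended in 7 of 12 alternatives, among them total counts (-0.18), DESeq2 (-0.42, adjusted p = 0.111), and leaving out the first P5CS IP library (-0.29), the first input (-0.48) or the second input (-0.40). CAB39L, the paralogue of CAB39, stood at -1.18 (SE 0.453) and just missed the threshold (adjusted p = 0.0506), passing in 6 of the 12 alternatives and standing at -0.73 without the second input library. STRADB, the paralogue of STRADA, had 204 and 264 counts in the IPs and 342 and 390 in the inputs and stood at -0.50 (SE 0.241, adjusted p = 0.108), and at -0.75 (adjusted p = 0.041) without the second P5CS IP library. In the input STRADB had 3.73 ± 0.0179 FPKM (SD, n = 2), above the 0.324 ± 0.0956 FPKM of STRADA in every library. PRKAG3 was not analysed here.

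Of 11 other AMPK-related kinases, 10 were tested, with 7 that rose, 1 that fell, 2 that did not pass and a median log2 fold change of 0.67. Over all tested genes, 25.4% were called higher and 25.6% lower. Among the rises, named here after their values were seen, MARK1, NUAK2 and BRSK1 lost their call in 4, 3 and 2 of 12 alternatives. NUAK1, MARK3, MARK4 and SNRK kept theirs in all 12. NUAK1, a kinase linked to cell adhesion and survival, rose most, from 26.0 and 28.0 CPM in the inputs to 110 and 120 CPM in the IPs (log2 fold change 2.09, SE 0.102, adjusted p = 5.15e-08, edgeR quasi-likelihood test). MELK, a relative that does not depend on LKB1, fell (-0.47, SE 0.105, adjusted p = 0.00332), and this call ended with total counts (-0.20). SIK1 was left out by the filter, with 2 counts in each IP and 16 and 6 in the inputs. Of the other kinases that phosphorylate AMPK, CAMKK2 rose (0.54, SE 0.0937, adjusted p = 0.000627), which did not pass once the length trend was removed (0.24), and MAP3K7, which encodes TAK1, fell (-0.39, SE 0.106, adjusted p = 0.0101), a call that ended with total counts (-0.12) and without the first input library (-0.32). CAMKK1 rose (1.83, SE 0.485, adjusted p = 0.0088), but its input libraries held 134 and 38 counts, and the value was 3.11 without the first and 1.14 without the second of them.

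Substrate genes moved in both directions. Of 8 metabolic substrate genes, 6 rose, 1 fell and 1 did not pass, and their median was 0.64 on the log2 scale. Of all tested genes, 25.4% were called higher and 25.6% lower, shares that apply to the next lists too. ACACA (11075 nt), ACACB (9454 nt), PFKFB2 (9147 nt), TBC1D4 (7747 nt) and TBC1D1 (6794 nt) lie in the longest length group, whose median was 0.38. How far length contributes to the list medians was not tested. TBC1D4, a Rab GTPase-activating protein of glucose uptake, had the highest value among those that rose (1.32, SE 0.0881, adjusted p = 4.84e-07, edgeR quasi-likelihood test), and GYS1, the muscle glycogen synthase gene, fell (-0.78, SE 0.172, adjusted p = 0.00294; -0.51 with total counts). Of 12 genes for substrates or partners in growth, autophagy and mitochondrial division, 7 rose, 2 fell and 3 did not pass, with a median of 0.82. FNIP2, a partner of folliculin, rose most (2.11, SE 0.139, adjusted p = 4.35e-07), and MFF, a receptor for the mitochondrial fission machinery, fell most (-1.45, SE 0.211, adjusted p = 0.000172). Of 7 genes for CRTC coactivators and class IIa histone deacetylases, which salt-inducible kinases phosphorylate, 2 rose, 2 fell and 3 did not pass, with a median of 0.08. HDAC4 rose (1.06, SE 0.154, adjusted p = 0.00017; 0.64 with the length trend removed) and CRTC1 fell (-1.25, SE 0.165, adjusted p = 8.31e-05). The other calls of this list, named here after their values were seen, were less stable. HDAC5 (0.28, adjusted p = 0.0374, edgeR quasi-likelihood test) lost its call in 5 of 12 alternatives, among them leaving out the first P5CS IP (0.21) or either input library (0.28 each), and stood at 0.07 (adjusted p = 0.611) with the length trend removed. CRTC2 (-0.46, adjusted p = 0.0239) lost it in 8 of 12, at -0.19 (adjusted p = 0.327) with total counts, -0.35 with the length trend removed, and -0.49 to -0.40 without any 1 of the 4 libraries.

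Some textbook targets of AMPK, named here after their values were seen, kept or lost their call with the length trend removed. RPTOR, the mTORC1 scaffold, and ULK1, the kinase that starts autophagy, rose by 1.24 each on the log2 scale (SE 0.0812 and 0.109, adjusted p = 4.27e-07 and 3.7e-06, edgeR quasi-likelihood test). Both kept their call in all 12 alternatives, where their lowest values were 0.91 for RPTOR and 1.04 for ULK1. TSC2, a suppressor of mTORC1, rose by 0.30 (SE 0.0851, adjusted p = 0.0125), and its value was 0.00 with the length trend removed and its call ended without either input library (0.29 and 0.31). ACACA, which encodes acetyl-CoA carboxylase 1, rose by 0.40 (SE 0.0763, adjusted p = 0.00107), and its sign turned with the length trend removed (-0.08).

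**Figure D4:**
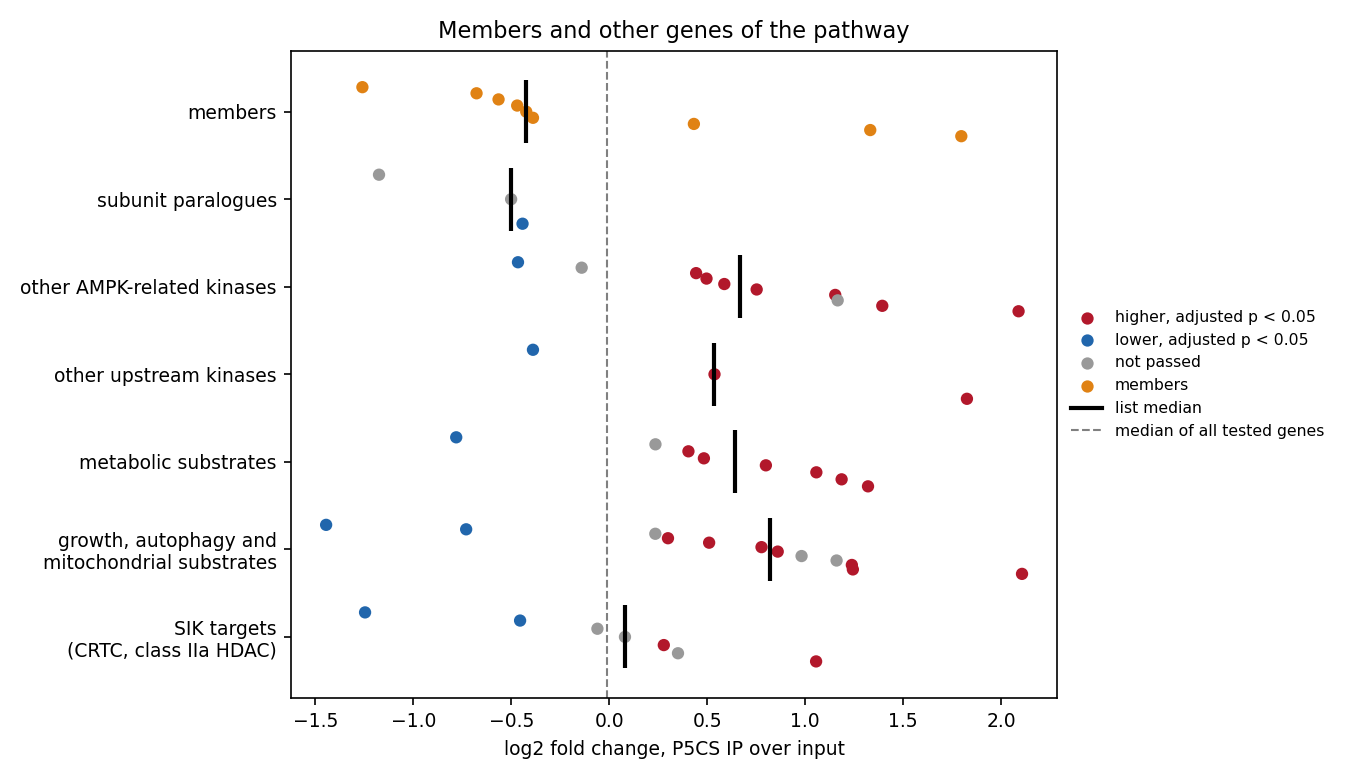
Each point is 1 gene at its log2 fold change of the P5CS IP over the input, by list, in red where it rose, blue where it fell and grey where it did not pass (edgeR quasi-likelihood test on 2 against 2 libraries, adjusted p under 0.05), with the members in orange. Black bars are list medians, from -0.50 for the subunit paralogues to 0.82 for the growth, autophagy and mitochondrial substrates. The dashed line is the median of all tested genes, -0.01, and values were not adjusted for gene length.

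Among the 51 other tested genes of the members and lists, the profile of NUAK1 over the 4 libraries was nearest to that of STK11, at a Euclidean distance of 0.359 in gene-centred log2 CPM. BRSK1, a kinase of neuronal polarity, followed at 0.446 and FNIP2 at 0.471. With 4 libraries in 2 groups, this distance mainly ranks genes by the size of their difference between IP and input.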

How the data were processed

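The deposited table holds, per the file headers, a whole-number count and an FPKM value per gene for each of 4 NCI-H1299 libraries (2 P5CS IP, 2 input), and the authors' own comparison (a signal column of mean normalised counts, a log2 fold change with SE, a score and a p-value). Reads were processed with fastp 0.23.2, aligned to hg38 and counted, with STAR 2.7.10a, featureCounts and DESeq2 named too, per the submitters' processing notes, and neither annotation nor strand setting is stated. The column names contain Cyto, a term absent from the labels, and were matched to samples by replicate number and the word input. The series design text names LACE-seq and IgG, and the titles were followed.

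Of 21373 rows, 1 repeated a symbol and was dropped. Deposited counts were tested with edgeR 4.0.16 in R 4.3.3 (TMM factors, filterByExpr, glmQLFit and glmQLFTest without a replicate term), with p-values adjusted by Benjamini-Hochberg over the 17304 genes kept and tested on simulated data first. CPM used TMM-scaled library sizes. Gene model lengths are counts divided by FPKM and library total. Coordinates and names come from RefSeq (GRCh38.p14), matched by gene ID. Alternatives were total counts, DESeq2 size factors, DESeq2 1.42.0, no filter, the replicate block, a loess length trend removed per library, halved counts and leaving out each library. The members and lists were chosen with earlier results of these data known, and 2 list genes are not reported here. All members were named, and of each other list of more than 4 genes the highest and lowest called gene by rule. Further genes of these lists were named after their values were seen.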

Additional observations from a re-analysis of the deposited data

How the results depend on the processing

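Each of the 9 members kept its sign under all 12 alternatives. The log2 fold changes ranged from 1.53 to 2.06 for STK11, 1.14 to 1.60 for MARK2 and -1.50 to -0.99 for PRKAA1. The alternatives are refits of the same 4 libraries, and the members were chosen with the difference known. Which members passed in them is therefore a description only. CAB39 and SIK3 no longer passed without the second P5CS IP library (0.26 and -0.28) or the second input library (0.40 and -0.34), CAB39 also with the length trend removed (0.31), and SIK3 (-0.12) and PRKAB1 (-0.41) also with total counts. PRKAB2 passed with the length trend removed (-0.77), alone or with the replicate block, and PRKAA2 with both together (-0.87). Causes were not tested. With total counts the share of calls on the higher side went from 49.8 to 63.5%, the median of all genes stood at 0.25, and 4 pathway genes in place of 8 fell. The count of genes called was 8832, and 7836 to 8379 when 1 library was left out, which leaves 1 group with a single library that is assumed to vary like the other group. Signs turned with total counts for SIK2 (0.13) and HDAC9 (0.20), with the length trend removed for ACACA (-0.0842), PFKFB2 (-0.184), EEF2K (-0.105) and HDAC7 (-0.0559), with the replicate block added to it -0.0842, -0.177, -0.107 and -0.0564, and for HDAC9 when 1 library was left out (-0.173 to 0.0601). The replicate numbers were not shown to pair libraries (correlation of deviations 0.000153 over 17304 genes), and the replicate block gave 8936 calls, with 33 pathway genes in place of 32. STRADA had at most 64 counts in a library, so its value is imprecise.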
